A study of Mus musculus with 4 samples.

Results

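Colonic epithelial cells from mice labelled as lacking Bmi1 in the intestinal epithelium were compared with those from wild-type mice, 1 array against 1 array of the 4 in the study. The comparison is the log2 intensity of the Bmi1-labelled array minus that of the wild-type array, for each probe set that the array annotation ties to exactly 1 gene symbol. These were 34945 of the 45037 probe sets measured, and they stand for 18193 genes. The study profiled colon epithelium of 4 genotypes early in a model of colitis-associated colon cancer, with 1 Affymetrix Mouse430_2 array for each. The genotypes are spelled WT, Bmi1ΔIEC, Mel18ΔIEC and, for the double knockout, Bmi1ΔIEC Mel18ΔIEC, where IEC stands for intestinal epithelial cell. Every mouse was of the C57BL/6 strain, sex-matched and 6 to 8 weeks old, and every group, wild type included, received both agents of the model. Azoxymethane, a colon carcinogen, was injected into the abdomen at 10 mg/kg, and after 5 days the drinking water held 3.5% dextran sulfate sodium of 35 to 50 kDa, which injures the epithelium, for 5 days. Cells were shaken off the opened colon in EDTA on day 12, and the protocol names no sorting step. The labels name neither the Cre driver nor the deleted exons. They also do not say how many mice stand behind an array, and the numbers the series description puts after the genotypes (3 after Bmi1ΔIEC and 4 after WT) may count mice or samples.

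Bmi1 is a subunit of Polycomb repressive complex 1, which binds chromatin, places ubiquitin on histone H2A and keeps developmental regulators and cell cycle inhibitors silent. In the intestine, Bmi1 is known for its part in the self-renewal of crypt cells. After dextran sulfate sodium the colon loses surface epithelium, takes up neutrophils and macrophages, and then repairs itself while stress, antimicrobial and interferon-induced genes run high.

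Values are intensities, the brightness of a probe set on a linear scale after robust multi-array averaging (RMA). A series of 4 values below always follows the order wild type, Bmi1, Mel18 and double knockout, by label, and a difference is the Bmi1-labelled minus the wild-type value on the log2 scale. The brightest probe set of a gene, by its mean log2 value on all arrays, represents it. A gene is called higher or lower when the difference was at least 2-fold and the larger of both values reached 33.4 intensity units, the median of all values and the floor used here. With 1 array on each side no difference has a replicate check and no p-value is given, and the number of arrays sets how precise any value can be. Probe sets of 1 gene check the probes, not the genotype. Intensities of different probe sets are not on a common scale and are not compared as amounts of RNA. Where intensities are summed over a list, members under the floor count too and the brightest members weigh most. Such a sum is set only beside the same sum on the other arrays.

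On the Bmi1-labelled array, 7 of 13 acute-phase genes, 7 of 12 neutrophil markers, 9 of 18 macrophage markers and 5 of 7 CLCA genes were lower than in wild type, and none of these was higher. In the other direction 6 of 13 cytochrome P450 genes, 10 of 37 conjugating enzymes, 4 of 12 steroid genes and 6 of 23 genes of fatty acid oxidation were higher, and none was lower as deposited. Of 11934 genes at or above the floor on either array, 687 were higher (5.76%) and 341 lower (2.86%), together 8.61%. Higher genes were more numerous, but the far ends leaned the other way. Only 55 genes were at least 4-fold higher against 74 at least 4-fold lower, and at 8-fold the counts were 10 and 28. The middle 50% of genes lay between -0.19 and 0.46, with a median difference of 0.13. Of the called genes, 66.8% were higher as deposited, 76.1% when array medians were made equal and 38.2% under floor centring, in which the genes that reach the floor get the same median on every array. The median difference itself was 0.22 and -0.12 under these scalings and 0.06 after quantile normalization. Of the higher genes, 149 lay under the floor in wild type, and 84 of the lower genes lay under it on the Bmi1-labelled array. For these the size of the difference rests in part on background signal.

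**Figure D1:**
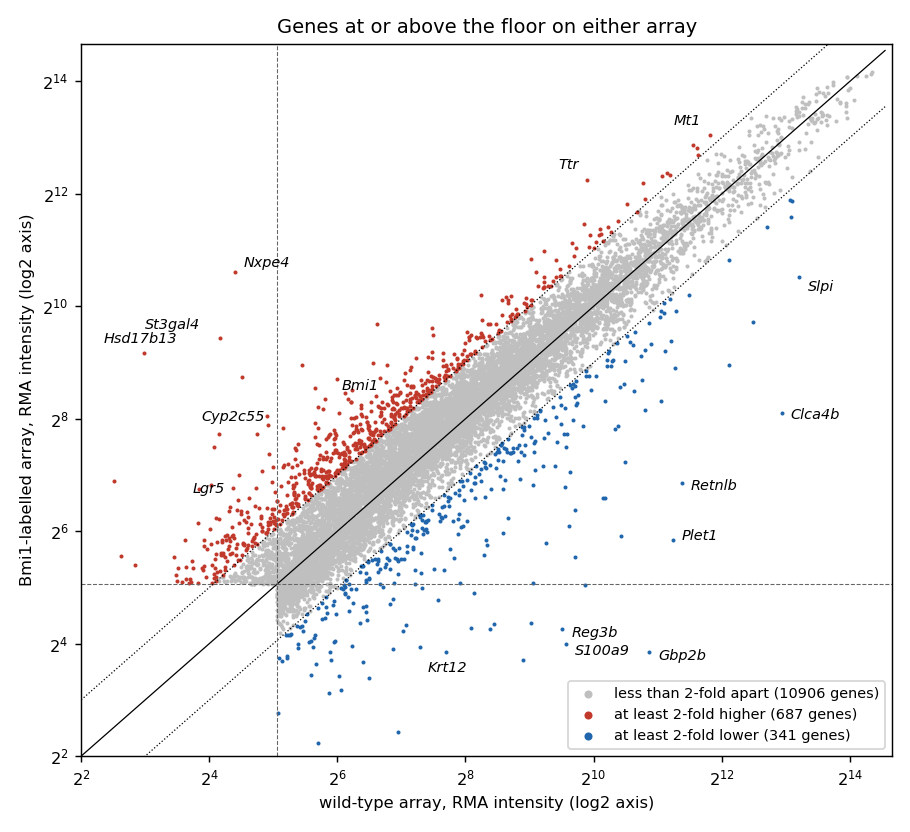
Intensity on the wild-type array (x axis, log2 scale) against the Bmi1-labelled array (y axis, log2 scale) for the 11934 genes at or above the floor on either array, 1 array each. Red points are the 687 genes at least 2-fold higher, blue points the 341 at least 2-fold lower, dotted lines mark 2-fold, and dashed lines mark the floor of 33.4 units. The blue points reach farther from the diagonal at high wild-type intensity, with Clca4b, Retnlb and Plet1 far below it.

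Bmi1 itself was read first. Its 2 probe sets gave 116, 334, 159.6 and 432 units and 88.4, 339, 135 and 399 units, so both were higher on the Bmi1-labelled array than in wild type, by 1.53 and 1.94. The value is opposite in direction to a loss of the transcript. A probe outside the deleted exons would not check the deletion, and where these probes lie was not analysed here, so the array is called by its label throughout. On each side of Bmi1, 5 annotated genes with a probe set were read. Nearest on one side, Commd3, whose product sorts membrane proteins, lay at 0.48 and Dnajc1 at 0.45 with their representing probe sets. A dimmer Dnajc1 probe set passed as lower, at -1.11. The nearest on the other side, Spag6 and Carlr, were under the floor on all arrays. Farther out, Armc3 read 63.2, 170.5, 118 and 30.6 and Msrb2, a methionine sulfoxide reductase, read 49.9, 133, 85.5 and 49.9. Both were highest on the Bmi1-labelled array and lowest, or tied for lowest, on the double-knockout-labelled array.

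Among the other Polycomb genes listed, only Pcgf1 passed the size rule. Of 18 genes of complex 1 at the floor, Bmi1 and Pcgf1, the subunit of a variant complex, were higher and none was lower. The median of these 18 was 0.43, beside 0.13 for all genes tested, of which 5.76% were higher and 2.86% lower. Pcgf1 read 30.2, 69.4, 57.8 and 32.2 and no longer passed under floor centring (0.97). Pcgf2, which encodes Mel18, read 30.2, 33.4, 39.8 and 31.96 with its brighter probe set. None of 11 genes of complex 2, which methylates histone H3, passed in either direction, and their median was 0.23. Under floor centring it was under 0, where the median of all genes tested was -0.12. Cdkn2a, which encodes the cell cycle inhibitors p16 and Arf and is a classical Polycomb target, read 10.6, 11.9, 11.7 and 662 and was under the floor on both arrays compared. None of the 17 Hox genes at the floor passed. Their median of 0.23 equalled that of complex 2 and turned to -0.03 under floor centring, again beside -0.12 for all genes tested. None of 16 p53 targets passed either, and none of 7 cell cycle inhibitors, 17 clock genes or 14 housekeeping genes. Under floor centring 2 clock genes were lower. Over all genes tested 8.61% were called, so lists this short can hold no called gene without standing apart from other genes. The median was 0.42 for the cell cycle inhibitors and 0.22 for the housekeeping genes.

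The chemokines that draw neutrophils were among the transcripts furthest below wild type. Cxcl2 read 836, 46.5, 51.8 and 413 and Cxcl5 read 350.3, 20.3, 86.9 and 202, both ligands of the receptor CXCR2. Ppbp, a further ligand of that receptor, read 334, 19.2, 12.5 and 405. In these 3 genes both single-knockout-labelled arrays lay below wild type and the double knockout, and in Cxcl5 the Mel18-labelled array was intermediate. Of 13 CXC chemokines at the floor, 5 were lower (Cxcl3 and Cxcl16 too) and none higher, with a median of -0.68 beside 0.13 for all genes tested. Of 11 CC chemokines, which draw monocytes and lymphocytes, 3 were lower and none higher, although the highest lay at 0.999, just short of the rule. The summed intensity of the 14 measured members was 5983, 7959, 7892 and 7480 units, so it was above wild type on the Bmi1-labelled array. Ccl7 read 318, 57.1, 34.6 and 33.1, Ccl8 686, 191, 239 and 317 and Ccl2 78.1, 31.2, 28.3 and 38.9, so these 3 were below wild type on all other arrays. The median of the CC list was -0.43, but 0.02 with the floor at percentile 75.

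Cytokines and their receptors followed in smaller numbers. Il1b, the secreted form of interleukin 1, read 1161, 96.2, 129 and 928 and its decoy receptor Il1r2 read 61.6, 16.4, 23.7 and 74.2, whereas the signalling receptor Il1r1 was higher at 40.6, 125, 87.6 and 57.1. Of the 14 genes of the interleukin 1 family and inflammasome, 3 were lower, Gsdmd, the pore-forming gasdermin, being the other, and 1 was higher. Oncostatin M is an interleukin 6 family cytokine. The gene itself (Osm) read 68.4, 31.2, 41.1 and 64.9, its receptor Osmr 203, 39.4, 35.8 and 34.4, and Socs3, a feedback inhibitor that its signalling induces, 979, 436, 479 and 1652. These were the 3 lower genes of 14 in that list, and none was higher. Ptgs2, the inducible enzyme of prostaglandin synthesis, read 117, 14.98, 20.2 and 84.96, lower only on the single-knockout-labelled arrays by the size rule. It was the 1 lower gene of 11 in the prostaglandin list, whose median was 0.34. Ptger3, Pla2g4a and Lta4h of that list were higher, at 2.54, 1.10 and 1.01, of which Pla2g4a and Lta4h did not pass under floor centring.

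Secreted defence proteins carried some of the largest differences. Slpi, an inhibitor of neutrophil elastase made by surface epithelium, read 9492, 1473, 2388 and 13527. Lrg1, a plasma glycoprotein of the acute phase, read 476, 13.1, 37.2 and 59.3, and Saa3, a serum amyloid, 786, 67.9, 72.6 and 148. Slpi was low on the single-knockout-labelled arrays only, while Lrg1 and Saa3 were also low on the double-knockout-labelled array. Of 13 acute-phase and secreted defence genes 7 were lower (Ltf, Lbp, Hp and Lcn2 too) and none was higher, with a median of -1.34. Retnlb, a goblet cell product that acts on bacteria, read 2665, 116, 298 and 716, and the peroxidase Lpo read 1384, 60.4, 70.4 and 603. Reg3b, a secreted lectin that acts on gut bacteria, read 731, 19.1, 18.6 and 16063 with one probe set and 999, 18.5, 15.3 and 10572 with the other. Both put the Bmi1-labelled array next to the Mel18-labelled array under the floor, and the double-knockout-labelled array far above wild type. Reg4, of the same family, lay the other way at 2261, 5284, 3983 and 2776, as did the pentraxin Mptx1 at 1328, 2929, 10229 and 6427. Reg4 and Mptx1 no longer passed under floor centring (0.99 and 0.91).

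The protocol names no sorting step, and some markers of leukocytes were lower beside these genes. Of 12 neutrophil markers at the floor 7 were lower and none higher, with a median of -1.63. S100a9 read 762, 15.95, 52.7 and 731, S100a8 935, 33.1, 93.4 and 851 and Clec4d, a lectin of myeloid cells, 89.8, 10.5, 18.7 and 83.1. The summed intensity of the 18 measured neutrophil markers was 3691, 1401, 1352 and 2821 units on the 4 arrays, and on the Bmi1-labelled array Cd177, which did not pass, makes up most of that sum. Macrophage and dendritic markers were lower in 9 of 18 and higher in none, at a median of -0.89. Tyrobp, an adaptor of myeloid receptors, read 544, 135, 171 and 707, and Csf1r, the receptor that macrophages need, 866, 344, 526 and 1011. Their summed intensity was 9128, 8187, 8310.3 and 9620.1 units. Neutrophils and macrophages also make Il1b and Cxcl2, and the part of these cells in the lower inflammatory transcripts was not tested. In a bulk sample, fewer cells of a type and less RNA per cell cannot be told apart.

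Several connective tissue markers were lowest on the Bmi1-labelled array. The collagens Col3a1, Col1a2 and Col1a1 read 1417, 391.8, 1779 and 2528, 519.9, 205, 535 and 814 and 99.3, 45.5, 114 and 160.3. The matrix genes Dcn and Fn1 read 818, 391, 615 and 1127 and 366, 177, 308 and 452. In all 5 the Bmi1-labelled array was the lowest of the 4. Of 21 fibroblast markers at the floor 6 were lower and 1, the protease Fap at 39.4, 114, 82.9 and 85.3, was higher, with a median of -0.78, and 11 were lower under floor centring. The summed intensity of the 24 measured markers was 5631, 2849, 5758 and 8236 units. None of 11 smooth muscle markers passed, at a median of -0.54, but 1 was lower under floor centring. Of 14 T and NK cell markers 2 were lower, namely the integrin Itgae, at a difference of -1.10, and granzyme Gzma at 203, 100.4, 68.97 and 683. No B and plasma cell marker of 10 passed, where 8.61% of all genes tested were called. Defining markers of epithelium were bright on every array: of 15 epithelial keratin and adhesion genes only Krt20, a keratin of surface cells, was lower, at 6668, 2729.6, 3637 and 7296, and the summed intensity was 103842, 88654, 93030.000 and 108730.000 units.

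Interferon-stimulated genes were lower in part. Of 24 at the floor, 10 were lower and 2 higher, with a median of -0.80. The higher ones were Ifi44l and Xaf1, whose call rests on its representing probe set at 1.30, while its other probe set lay at -6.26. Rsad2, an antiviral enzyme, was lower with each of its 3 probe sets, and the representing one read 2376, 665, 569 and 1958. Oas2, a sensor of double-stranded RNA, read 767, 213, 192 and 462, Usp18, a brake on interferon signalling, 449.9, 151, 114 and 369.961, and Ifit2 1575, 633, 161 and 511. All 4 genes were lowest on the Mel18-labelled array, and the Bmi1-labelled array came next except in Ifit2, where the double knockout did. Ifi44l went the other way with 2 probe sets at 5.72, 119, 6.30 and 48.1 and 8.37, 82.3, 6.60 and 22.5, both highest on the Bmi1-labelled array, while its remaining probe set stayed under the floor on all arrays. Gbp2b, an interferon-inducible GTPase, read 1866, 14.4, 24.3 and 2787 with its single probe set, while the other 9 GTPases at the floor did not pass and the list median was -0.30. Under floor centring 2 of these GTPases were lower, Gbp2b included. Genes of MHC class II had 1 of 7 lower, their activator Ciita at 196, 76.7, 22.5 and 103, and genes of MHC class I processing 1 of 12, their activator Nlrc5 at 468, 171, 129 and 223. Both activators were lower still on the Mel18-labelled array. Under floor centring, 3 class II and 2 class I processing genes were lower on the Bmi1-labelled array.

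Some genes known from the injured and repairing surface were lower as well. Of 7 CLCA and related genes, whose products modulate chloride channels, 5 were lower and none higher, with a median of -2.08. Clca4b read 7839.6, 274, 784 and 5849, and its neighbour Clca4a read 4446, 498, 1281 and 2028. Plet1, a surface protein of progenitor cells, read 2414, 57.2, 77.00 and 247 and 282, 12.5, 21.2 and 34.3 with 2 probe sets and 91.4, 57.2, 68.1 and 71.9 with the third, so the size of its difference depended on the probe set, from -5.40 to -0.67. The cornified envelope precursors Sprr2h and Sprr1a read 533, 33.6, 51.1 and 101 and 281, 29.9, 63.2 and 206, and the crosslinking enzyme Tgm2 1594, 362, 371 and 1409. Of 22 growth factor ligands, repair and squamous-type genes 6 were lower and 2 higher. The higher ones were Egf at 31.4, 83.9, 90.1 and 36.9 and Tgm3, a further transglutaminase, at 3174, 6581, 6487 and 498, the latter highest on the single-knockout-labelled arrays and at 0.82 under floor centring. Cldn4 and Cldn2, claudins that seal or open the tight junction, went in opposite directions at 671, 143, 194 and 732 and 714, 1624, 1071 and 313, and no other of 16 tight junction genes passed. Cldn2 did not pass under floor centring.

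The heat shock genes Hspa1b and Hspa1a stood out among the chaperones. Hspa1b was lower with each of 3 probe sets, which read 1789, 285, 526 and 434, 637, 95.5, 167 and 141 and 554, 67.4, 145 and 85.6. Hspa1a, its near-identical copy, read 227, 45.99, 60.1 and 43.1, and because the sequences are so alike the probes may not separate them. Hsph1, a nucleotide exchange factor, read 571, 285, 267 and 183, at the edge of the rule, and Dnajb4 was higher at 123, 343, 245 and 139. The list of 16 had a median of -0.27. Of 19 genes of the unfolded protein response only Chac1 was lower, at 113, 26.3, 29.6 and 210.2, while 2 were lower under floor centring.

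Some enzymes that handle drugs and steroids were higher. Of 13 cytochrome P450 genes at the floor 6 were higher and none lower, with a median of 0.52. Under floor centring 6 were higher and 1 lower. Cyp2c55 read 17.8, 213, 353 and 124, Cyp2f2 109.9, 498, 387 and 32.1 and Cyp2d26 64.99, 274, 187 and 118. The double-knockout-labelled array lay under wild type for Cyp2f2 but above it for Cyp2c55 and Cyp2d26. Of 37 conjugating and detoxifying enzymes 10 were higher and none lower, at a median of 0.66, and 6 were higher under floor centring. They included the esterases Aadac at 63.5, 419, 368 and 230.3, Ces1d at 74.5, 315, 102 and 22.5 and Ces1g at 31.7, 118, 23.5 and 23.2, the sulfotransferase Sult1c2 at 267, 699.6, 429 and 258 and the glutathione transferase Gsta4 at 596, 1475, 739 and 805. The receptors Nr1i3 (CAR) and Ppara, which turn on such genes, read 36.4, 78.8, 55.9 and 61.7 and 48.6, 115, 101 and 60.8, and no other of 16 nuclear receptors passed. Nr1i3 did not pass under floor centring. Of 12 steroid genes 4 were higher. Hsd17b13, an enzyme of lipid droplets, read 7.86, 573, 10.95 and 7.81 with one probe set and stayed under the floor with its other, at 17.6, 17.2, 12.1 and 13.8. Hsd3b3 read 55.8, 327, 352 and 103 and 9.30, 132, 244 and 58.1, and Cyp11a1, which makes pregnenolone, read 24.6, 96.7, 45.00 and 15.7.

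A part of the genes of fuel use was higher too. Of 23 genes of fatty acid oxidation and ketogenesis 6 were higher and none lower, with a median of 0.49, but 2 were higher under floor centring. Acaa2, the last enzyme of the mitochondrial cycle, read 399, 1144, 956 and 835, and Ehhadh of peroxisomes 169, 366, 312 and 186, of which Ehhadh did not pass under floor centring. Of 18 genes of gluconeogenesis and of nitrogen and nucleotide breakdown 8 were higher and 2 lower, at a median of 0.84. Pck1 and Fbp1, which run steps of glucose synthesis, read 98.7, 821, 908 and 153 and 14.1, 71.2, 29.1 and 40.3. The urea cycle enzymes Cps1 and Otc read 79.6, 224, 162 and 292 and 82.6, 271, 139 and 475. Arg1, also an enzyme of alternatively activated macrophages, was lower at 84.7, 12.7, 9.17 and 91.7, whereas its mitochondrial relative Arg2 was higher at 28.1, 75.3, 52.6 and 95.6. Lipid synthesis did not follow: none of 18 cholesterol synthesis genes passed, at a median of -0.42, but 2 were lower under floor centring. Of 20 lipogenic genes Scd1, a desaturase, and Lpin2 were lower at 391, 119.9, 186 and 98.4 and 473, 209, 210.4 and 372.

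A few transporters and mucin-modifying enzymes were higher. The peptide transporter Slc15a2 read 16.8, 180.040, 159.979 and 210.030, the amino acid transporter Slc6a20a 40.5, 179, 133 and 99.3 and the monocarboxylate transporter Slc16a1, which takes up butyrate, 1109.7, 2506, 2763 and 1011, although Slc16a1 did not pass under floor centring. In all, 4 of 16 amino acid and peptide transporters were higher, with a median of 0.12 that turned to -0.12 under floor centring. The median of all genes tested turned likewise, from 0.13 to -0.12. Among 31 mucin and glycosylation genes 5 were higher and 1 lower, at a median of -0.01. The higher ones were Nxpe4 at 21.1, 1561, 2496 and 16.6, Nxpe2 at 50.1, 376, 445 and 11.1 and the sialyltransferases St3gal4, St3gal6 and St6galnac2, at 5.27, 1.22 and 1.46, of which St3gal6 did not pass under floor centring. Fut2, which adds fucose to surface glycans, was the lower one at 1265, 525, 739 and 1401. In ion transport, the sodium-proton exchanger Slc9a3 read 819, 252, 1024 and 1059, so the Bmi1-labelled array alone was low, and the bicarbonate cotransporter Slc4a4 read 265, 678, 706 and 1189.5.

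Stem cell markers were higher in 3 of 19 and lower in 1. Lgr5, the receptor for R-spondin on crypt base stem cells, read 21.7, 93.6, 35.1 and 18.8 with one probe set and stayed under the floor with the other, at 9.32, 8.93, 9.02 and 12.4. Smoc2 read 42.03, 188, 94.9 and 20.2 and 25.1, 68.1, 41.8 and 18.6, and Ascl2, a transcription factor of those cells, 44.8, 130.4, 69.2 and 28.7. All 3 were highest on the Bmi1-labelled array and lowest on the double-knockout-labelled array. Prom1 was lower at 2118, 964, 2287 and 5341. The list median was 0.56. Proliferation genes had 2 of 30 lower, namely E2f2 at 167, 65.7, 74.5 and 227 and the ribonucleotide reductase subunit Rrm2 at 396, 175, 119 and 89.1, and a median of -0.08. Among 20 goblet cell markers 1 was higher and 2 were lower, beside 5.76% and 2.86% of all genes tested. The lower ones were Retnlb, described above, and Fcgbp, a mucus protein, at 8564, 3813, 8439 and 13349. None of 8 tuft cell markers was called. Of 13 enteroendocrine markers 1 was higher and 2 were lower, with Tac1, the precursor of substance P, at 1298, 227, 671 and 3064.

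**Figure D2:**
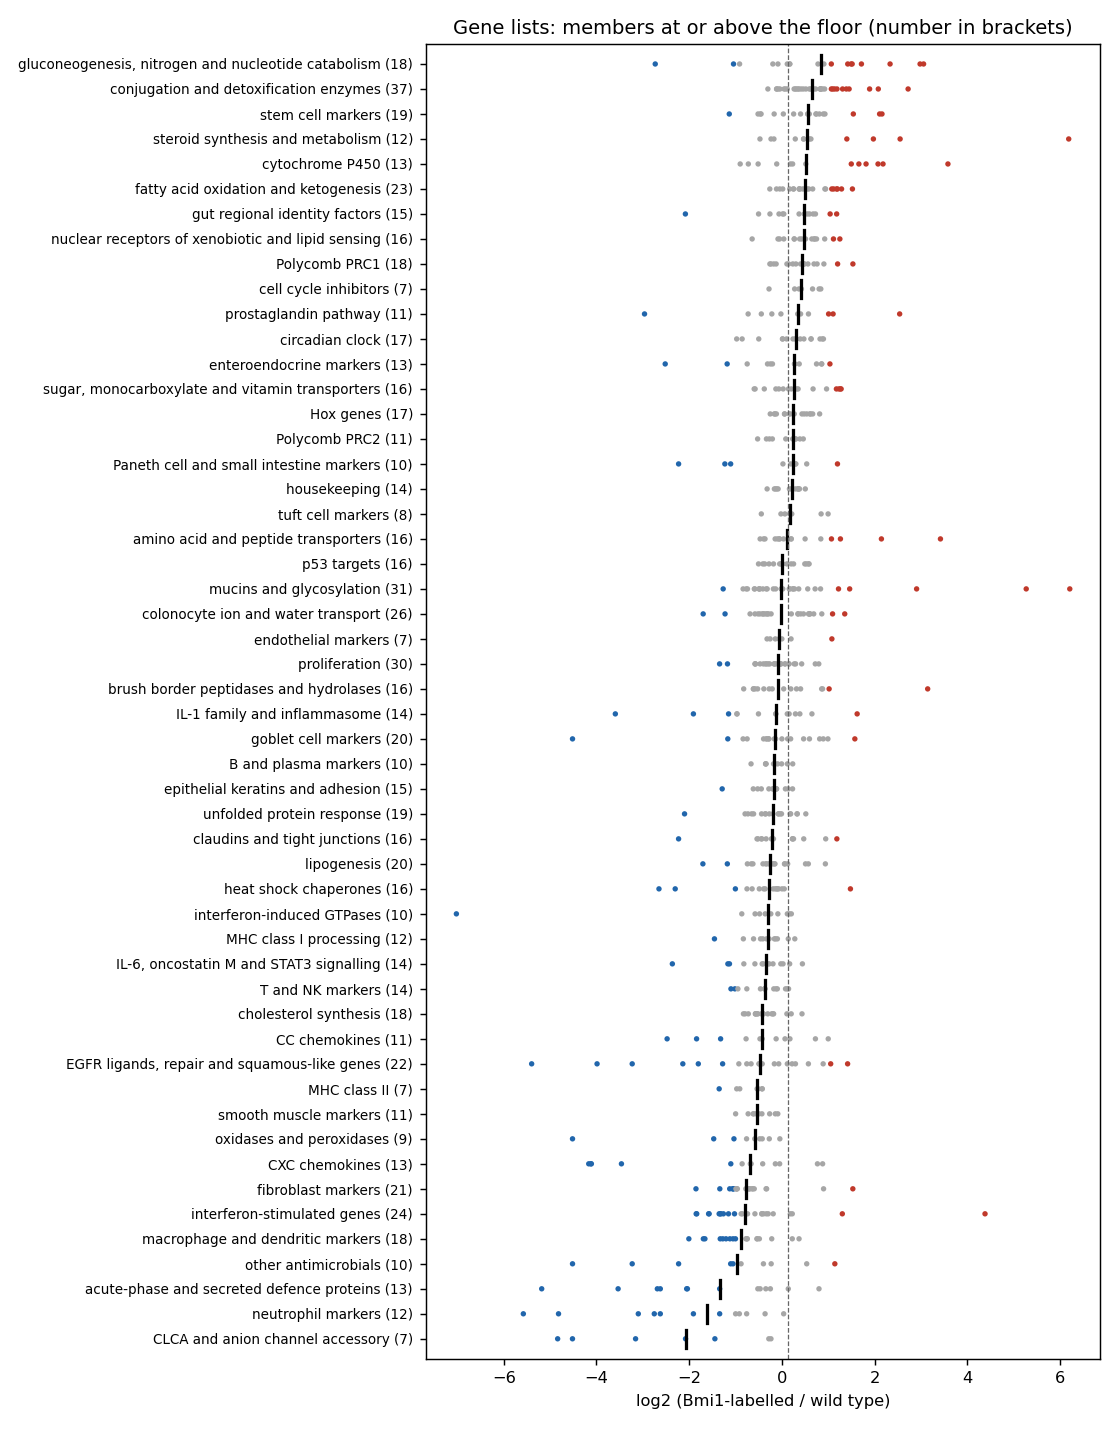
Log2 difference of the Bmi1-labelled from the wild-type array (x axis) for the members of each gene list at or above the floor, in lists with at least 5 such members, whose number stands in brackets. Groups put together after their values were seen are not drawn. Red and blue points passed the size rule, black ticks are list medians, and the dashed line is the median of all genes tested, 0.13. Of the lists drawn, the CLCA, neutrophil and acute-phase lists lie lowest, at medians of -2.08, -1.63 and -1.34, and gluconeogenesis and conjugation genes highest, at 0.84 and 0.66.

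Few of the differences from wild type left the Bmi1-labelled array apart from every other array. Of 12154 genes at the floor on at least 1 of the 4 arrays, 32 were at least 2-fold above all other 3 (0.263%) and 37 at least 2-fold below (0.304%). The same counts were 6 (0.0494%) and 27 (0.222%) for the Mel18-labelled array and 121 (0.996%) and 134 (1.1%) for the double knockout. For wild type they were 41 (0.337%) and 57 (0.469%). Above were Hsd17b13, Ces1d, Ces1g and Lgr5, already described. Ap1s3, an adaptor of clathrin coats, read 43.5, 499, 78.2 and 89.96, Slc27a2, a fatty acid carrier and ligase, 35.5, 141, 53.4 and 30.9, and Gatm, which makes the precursor of creatine, 68.2, 192, 71.96 and 17.4. Bex4 and the integrin subunit Itgb8 read 18.5, 57.4, 20.5 and 11.8 and 12.3, 57.6, 13.3 and 22.1, and Rsad1 read 52.7, 186, 49.4 and 55.4. Below were Cxcl5, S100a9, Col3a1, Slc9a3, Tac1, Clca4b and Clca4c-ps. Krt12, a keratin best known from the cornea, read 208, 14.4, 87.8 and 172 and 118, 5.55, 43.8 and 97.2. Fam124a read 322, 53.7, 338 and 259 and Lhfpl2 602, 201, 582 and 812. For Fam124a and Lhfpl2 the other 3 arrays lay within 1.5-fold of each other, whereas for Krt12, S100a9 and Clca4b the Mel18-labelled array was intermediate.

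**Figure D3:**
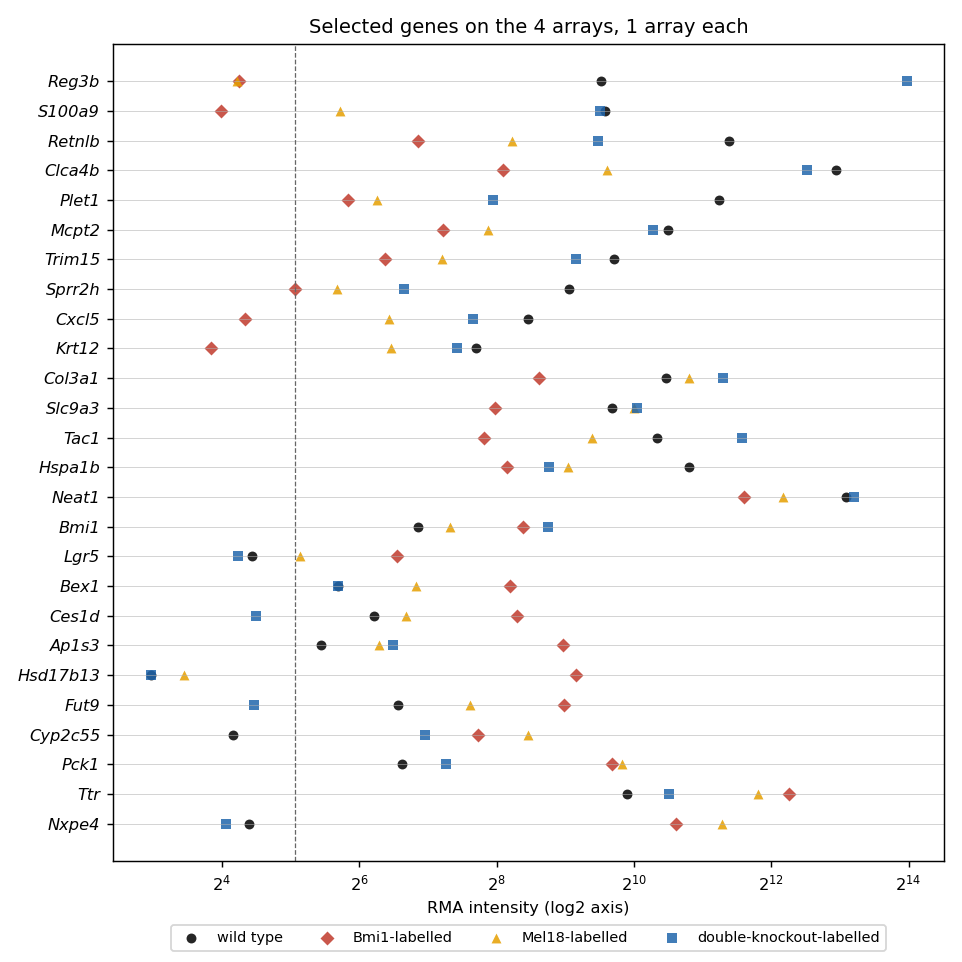
Intensity (x axis, log2 scale) of 26 genes described in the text on each of the 4 arrays, 1 symbol per array, with the floor of 33.4 units dashed. In Reg3b, S100a9 and Cxcl5 the Bmi1-labelled diamond lies at the low end with the Mel18-labelled triangle nearest to it, while in Hsd17b13, Ap1s3, Slc9a3 and Col3a1 it stands alone.

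Where a gene had several probe sets, they agreed in sign more often the larger the difference was. Of 5064 genes with at least 2 probe sets at the floor, all probe sets had 1 sign in 61.7%. This share was 49.1% of 2132 genes whose representing difference was under 0.25 in size, 74.4% of 1137 genes between 0.5 and 1, 82.0% of 294 genes between 1 and 2 and 90% of 30 genes at 2 or more. Over all of these genes, which share the 2 arrays and are no replicates of each other, the brightest and second brightest probe sets correlated at r = 0.57, and 75.3% of pairs lay within 0.5 of each other. Most calls could not be checked this way, since 464 of the 687 higher and 240 of the 341 lower genes had 1 probe set at the floor. Of the 223 higher genes with more, 35.9% passed with every probe set and 79.4% kept the sign. Of the 101 lower genes with more, 30.7% passed with every probe set and 90.1% kept the sign.

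Genes in which every probe set at the floor passed include several not named above. Ttr, the carrier of thyroid hormone, was higher with 4 probe sets, between 2.30 and 2.54, and the representing one read 954, 4883, 3595 and 1456. Ndrg1, a gene of differentiation and low oxygen, was higher with 5 probe sets, between 1.26 and 2.71, at 302, 1177, 1053 and 707. Both were highest on the Bmi1-labelled array, followed by the Mel18-labelled array. Fut9, which builds the Lewis X glycan, read 94.5, 508, 196 and 22.04, Timp4, an inhibitor of metalloproteases, 55.04, 287, 184 and 37.4, and the histone deacetylase Hdac11 52.1, 227, 264 and 55.6. Clps, the cofactor of pancreatic lipase, read 102, 426, 310.1 and 305. On the lower side, Sbno2 and the sugar transporter Slc5a9 passed with 4 probe sets each, at 316, 96.99, 141 and 286 and 253, 93.6, 136 and 279.6. Csf2rb, the shared receptor chain for GM-CSF, read 158, 38.2, 67.7 and 180.3, and Tnfaip2 183, 39.9, 44.7 and 211. Gcnt2, a glycan-branching enzyme, Slfn5 and the membrane protein Mal lay between -1.38 and -1.84. Fut9, Tnfaip2, Gcnt2 and Slfn5 also have probe sets under the floor on both arrays, which were not counted.

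In 8 genes 1 probe set was called higher and another lower. Xaf1, an interferon-induced gene, was the widest apart, with 1496, 19.5, 23.6 and 1164 and 333, 821, 474 and 853, or -6.26 and 1.30. The first of these put both single-knockout-labelled arrays under the floor, and the second put the Bmi1-labelled array above wild type. Alcam, an adhesion protein, had 4 probe sets above 0, up to 1.55, and 1 at -1.83. Kif5b, a kinesin, ranged from -1.16 to 1.02 over 6 probe sets, and Rgmb from -1.03 to 1.06. Zfp266, Acpp, Gabpb2 and Camk2d were the others. Their values are thus no measure of the gene as a whole.

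**Figure D4:**
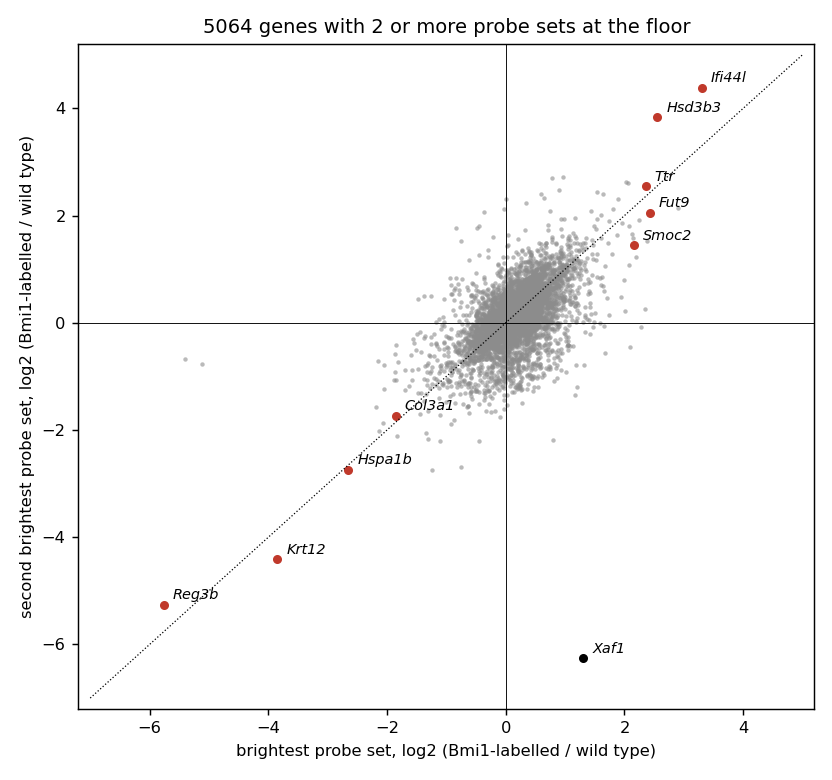
Log2 difference of the Bmi1-labelled from the wild-type array for the brightest probe set on these arrays (x axis) and the second brightest (y axis) of 5064 genes, with the diagonal dotted. Named red points have the same sign with both probe sets, Reg3b lowest, and Xaf1 (black) lies far from it at 1.30 and -6.26.

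Called genes, mainly the lower ones, had chromosomal neighbours called in the same direction more often than genes at large, though most of their neighbours were not. Of the nearest tested neighbours of lower genes 16.4% were lower too, beside 2.86% of all genes, and of the neighbours of higher genes 8.78% were higher, beside 5.76%. In 38 neighbour pairs the directions were opposite, against 60 pairs both higher and 56 both lower. Runs of at least 3 adjacent called genes numbered 9 lower with 30 genes and 5 higher with 17 genes. The lower runs were families of tandem copies for the most part. They held mast cell proteases (Mcpt-ps1, Mcpt1, Mcpt2 and Mcpt4), Trim15, Trim10, Trim40 and Trim31, Sprr genes, Clca4 genes, the chemokines Ccl2, Ccl7 and Ccl8, the serine proteases Prss30, Prss22 and Prss27, the complement chains C1qa, C1qb and C1qc, and the lectins Clec4n, Clec4d and Clec4e. Csf2rb, Csf2rb2 and Ncf4 are neighbours too. Prss22 read 271, 19.5, 24.1 and 167, and Trim15, a ubiquitin ligase of the gut, 834, 82.9, 147 and 568. Probes of near-identical copies may read each other's RNA, so members of such a run are not separate observations. The longest higher run was Bhlhb9, Bex2, Bex4, Tceal8 and Bex1 on the X chromosome. Bex1 read 51.9, 294, 113 and 51.9 and Tceal8 146, 381, 241 and 159, and in all 5 the Bmi1-labelled array was the highest. The esterases Ces1c, Ces1d and Ces1e formed another run, as did Cadm1, Nxpe4 and Nxpe2.

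Upstream sequence was read for the members the results turn on, to show which known motifs lie before genes that were low or high together. The 250 bases before the annotated start were taken from RefSeq (GRCm38.p6), which held an entry for 9633 of the 11934 tested genes, 559 of them higher and 261 lower. Motifs were searched on both strands and matches may overlap. The interferon response motif, GAAA followed by any 2 bases and a second GAAA, was found before 8.43% of lower, 1.43% of higher and 2.56% of all tested genes. The AP-1 motif TGANTCA was found before 11.9%, 4.29% and 4.49%, the C/EBP motif TTGCNNAA before 11.9%, 9.3% and 7.19%, and the NF-kB consensus before 6.9%, 3.94% and 4.42%. TATAAA, the letters of the TATA box, was found at any place in the window before 20.3%, 8.41% and 6.98%. AAAGTCCA, one form of the HNF4 motif, was found before 2.68%, 0.894% and 0.986%, and the heat shock motif GAANNTTC, added after the values were seen, before 7.28%, 5.37% and 4.79%. These shares are descriptions, lower genes include tandem copies that share sequence, and no match is evidence that a factor binds. Of the genes printed, Reg3b, Hspa1b and Col3a1 were the first lower genes on a list in which every probe set at the floor passed. Rsad2, Cxcl2 and Cyp2c55 were chosen after their values were seen, as 1 gene each of the interferon, chemokine and cytochrome P450 lists. S100a9, Retnlb and Lgr5 were picked in the same way but are not printed. The window of S100a9 held a C/EBP match 236 to 229 bases before the start, and Retnlb and Lgr5 gave no window. Capitals mark the matches, which lie 29 to 24 bases before the start in Reg3b and in Cyp2c55 (TATAAA), 117 to 112 in Col3a1 (TATAAA) and 104 to 97 in Hspa1b (heat shock motif). In Rsad2 the interferon motif lies 120 to 111, the AP-1 motif 87 to 81 and TATAAA 10 to 5 bases before it, the first and last of these on the other strand. In Cxcl2 overlapping NF-kB matches on both strands lie between 97 and 87 bases before it. The windows of Ifi44l, Nxpe2 and Hsd3b3, the first higher genes by the same rule, held none of these motifs, which says only that those letters are not there.
Reg3b (chr6:78370635-78370884, plus strand): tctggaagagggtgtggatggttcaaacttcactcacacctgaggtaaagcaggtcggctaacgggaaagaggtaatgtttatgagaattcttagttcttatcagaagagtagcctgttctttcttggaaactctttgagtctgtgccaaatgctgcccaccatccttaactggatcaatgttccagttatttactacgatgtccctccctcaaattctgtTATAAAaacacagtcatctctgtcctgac
Hspa1b (chr17:34959239-34959488, minus strand): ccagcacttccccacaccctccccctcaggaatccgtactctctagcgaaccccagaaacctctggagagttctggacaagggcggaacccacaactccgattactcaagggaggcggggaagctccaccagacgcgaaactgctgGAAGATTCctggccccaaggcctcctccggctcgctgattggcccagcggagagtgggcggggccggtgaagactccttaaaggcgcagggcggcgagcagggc
Col3a1 (chr1:45311288-45311537, plus strand): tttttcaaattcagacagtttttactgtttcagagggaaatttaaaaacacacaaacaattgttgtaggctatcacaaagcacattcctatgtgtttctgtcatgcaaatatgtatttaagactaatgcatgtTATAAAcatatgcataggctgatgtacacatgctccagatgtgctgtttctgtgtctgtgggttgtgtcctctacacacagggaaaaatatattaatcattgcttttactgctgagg
Rsad2 (chr12:26456453-26456702, minus strand): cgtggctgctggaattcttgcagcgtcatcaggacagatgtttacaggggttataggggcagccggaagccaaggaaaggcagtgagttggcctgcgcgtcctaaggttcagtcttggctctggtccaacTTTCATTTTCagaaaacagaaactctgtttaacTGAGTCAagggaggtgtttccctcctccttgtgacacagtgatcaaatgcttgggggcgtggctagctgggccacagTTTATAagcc
Cxcl2 (chr5:90903649-90903898, plus strand): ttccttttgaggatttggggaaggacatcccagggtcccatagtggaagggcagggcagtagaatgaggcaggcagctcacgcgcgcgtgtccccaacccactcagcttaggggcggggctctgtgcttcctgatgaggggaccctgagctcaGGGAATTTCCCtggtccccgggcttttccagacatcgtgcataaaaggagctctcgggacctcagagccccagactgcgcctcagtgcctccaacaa
Cyp2c55 (chr19:39006769-39007018, plus strand): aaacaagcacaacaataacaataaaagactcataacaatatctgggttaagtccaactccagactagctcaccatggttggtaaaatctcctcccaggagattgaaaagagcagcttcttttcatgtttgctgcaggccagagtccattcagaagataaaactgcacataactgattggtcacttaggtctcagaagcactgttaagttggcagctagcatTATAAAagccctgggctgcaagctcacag

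Probe sets that the annotation does not list were lower on the Bmi1-labelled array far more often than named ones. Of 2959 such probe sets at the floor, 556 were lower (18.8%) and 74 higher (2.5%), with a median of -0.45. Of 20299 probe sets with 1 symbol, 3.53% were lower and 5.61% higher, with a median of 0.11. On the Mel18-labelled array, 4.73% of unlisted and 2.23% of named probe sets were below wild type, and for the double knockout these shares were 1.51% and 1.99%. With the floor at percentile 75 the shares on the Bmi1-labelled array were 31.2% and 3.73%, and at percentile 90 they were 15.4% and 3.26%, so the gap in shares was there among bright probe sets too. The median of unlisted probe sets was -0.38 at percentile 75 but -0.02 at percentile 90, beside 0.18 and 0.13 for named ones. A transcript that stays in the nucleus, picked after its values were seen, was lower too. Neat1, the RNA core of paraspeckles, read 8719.990, 3099, 4600.4 and 9404 with its bright probe set, whereas Malat1, another such RNA, did not pass with its representing probe set and ranged from -1.20 to -0.26 over 7. What the unlisted probe sets read was not analysed here, and the part of this shift in the results for named genes was not tested.

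**Figure D5:**
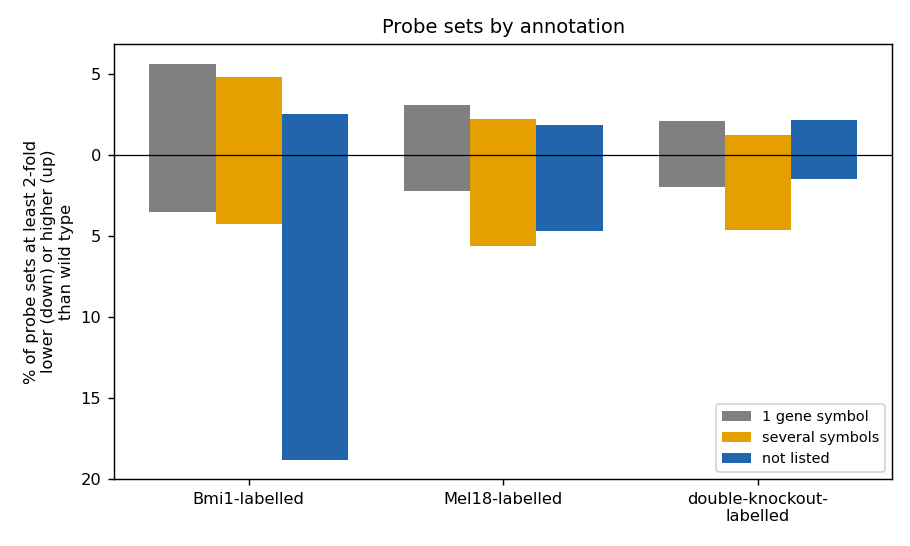
Percent of probe sets at the floor that were at least 2-fold higher (bars upward from 0) or lower (bars downward from 0) than wild type, for each of the other 3 arrays and for probe sets with 1 gene symbol, with several and with no listing in the annotation. The bar for unlisted probe sets on the Bmi1-labelled array reaches 18.8% downward, beside 3.53% for those with 1 symbol.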

How the data were processed

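The authors deposited 1 table of intensities per probe set for 4 arrays. Per the submitters' processing notes, RMA in Affymetrix Expression Console produced them. The versions, and whether the arrays were summarised together, are not given in the sources used here. As usually run, RMA corrects for background and brings arrays to a common distribution, which can compress differences of dim probe sets. Per the labels' protocols, 200 ng of total RNA was labelled for each array. The deposited intensity values are linear, so log2 was taken with no further scaling. Array medians were 34.2, 32.1, 32.9 and 34.1 units in the order wild type, Bmi1, Mel18 and double knockout.

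Probe sets were named from the platform annotation, with symbols updated through RefSeq gene identifiers of GRCm38.p6, where 34741 of the 34945 with 1 symbol matched. A further 932 probe sets had several symbols and 9160 were not listed. Neighbouring genes follow the order of that assembly.

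Members and gene lists were chosen with earlier results of these data known. Lists held 1034 genes, of which 936 were measured and 792 reached the floor. The naming rule picks 206 genes, and the text describes a part of them. They are Bmi1 and 5 measured neighbours on each side, the 15 highest and 15 lowest genes whose 2 or more probe sets at the floor all passed, up to 4 called members of a list and members showing its range, 8 genes with opposed probe sets, 10 with the largest gain or loss in intensity, and 10 per direction set furthest from all other arrays. A few further members of lists or chromosomal runs are named to complete them, after their values were seen. Clone and predicted names, 45 of the higher and 15 of the lower genes, were only counted. Other settings tried were the mean over probe sets, probe sets of plain type only, no floor, a floor at percentile 75, 3 other scalings, 1.5-fold and 3-fold rules and log2(value + 16). Counting was tested on simulated data. Python 3.11.15, numpy 2.4.6, pandas 2.3.3 and matplotlib 3.10.9 were used.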

Additional observations from a re-analysis of the deposited data

Results flagged for a closer look

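Probe sets that the array annotation does not list were in no comparison of genes, and 74 of them were at least 2-fold higher and 556 at least 2-fold lower when the Bmi1-labelled array was set against wild type. They are picked out as a signal in data outside the main measurement. They carry no gene name here, and their identity was not analysed.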

How the results depend on the processing

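No paired analysis was possible because each genotype has 1 array and the results come from no test; for the same reason no array could be left out. Against 687 higher and 341 lower genes as reported, there were 440 higher with the floor at percentile 75, 452 higher with log2(value + 16), 347 and 562 with floor centring (38.2% of calls higher), 2128 and 899 under a 1.5-fold rule, and 140 and 112 under a 3-fold rule (55.6% higher). Genes above all other arrays, 32 as reported, numbered 18 with the floor at percentile 75, 18 with floor centring, 16 with log2(value + 16), 219 at 1.5-fold and 6 at 3-fold. Those below, 37 as reported, numbered 22, 150 and 7 under the last 3 of these. The share of genes with probe sets of 1 sign, 61.7%, was 49.4% without a floor and 73.8% at percentile 75. Unlisted and named probe sets lower, an outcome added after the data were seen, made up 6.46% and 2.2% without a floor, 29.95% and 6.23% with floor centring, 41.7% and 9.48% at 1.5-fold, 2.84% and 0.828% at 3-fold, and 10.4% and 2.23% with log2(value + 16), while the unlisted share was 31.2% at percentile 75. With probe sets averaged, Lta4h lay at -0.057, Xaf1 at -2.48 and Acpp at -0.11, and with probe sets of plain type only Lta4h lay at -0.93, Ptger3 at -0.019 and Gas5 at -0.44, all opposite to the reported direction. Of the 206 genes the naming rule picks, 45 no longer passed with the floor at percentile 75, 34 with probe sets averaged, 23 with floor centring and 3 with centring on medians. The causes were not tested. Low intensity limits both the size and the sign of a difference, and 1 array per genotype leaves the spread between mice unknown.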

Other observations

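These gene groups were chosen after their values were seen, so their counts are descriptions. Mast cell proteases and markers were lower in 6 of the 8 at the floor, beside 2.86% of all genes. The mucosal mast cell proteases Mcpt2 and Mcpt1 read 1446, 149.6, 234 and 1243 and 755, 111, 199.6 and 836 on the arrays of wild type, Bmi1, Mel18 and double knockout, by label, and carboxypeptidase Cpa3 read 88.1, 21.4, 28.4 and 112. Kit, the receptor for stem cell factor on mast cells and on some goblet-type cells of the crypt, was higher at 73.8, 259, 189.6 and 89.9. The Trim genes of the MHC region, which encode ubiquitin ligases, were lower in 4 of 6, with Trim40 at 1337, 234, 478 and 1036 and Trim31 at 2109, 894, 1255 and 1737. In the other direction, 5 of 7 Bex and Tceal genes, small X-linked proteins, were higher, with a median of 1.53. Of 6 secretory products typical of pancreas at the floor 3 were higher. Cela1, an elastase, read 3016, 7498, 6781 and 1911, and syncollin (Sycn), a protein of zymogen granules, 3128, 7186, 8222 and 1930.4, so wild type lay between the single-knockout-labelled arrays and the lower double-knockout-labelled array. With Sycn the difference was 0.97 under floor centring. The carrier of retinol Rbp4 read 102, 292, 102 and 113, and the Bmi1-labelled array alone was high.

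Few ribosomal protein genes passed. Of 46 at the floor 1 was called, Rpl14 at 1.02, beside 8.61% of all genes tested, and none was called under floor centring. The median was 0.29, beside 0.22 for housekeeping genes and 0.13 for all genes tested. Of 7 host genes of small nucleolar RNAs 1 was called, too short a list to set against that share, with a median of 0.64. That gene, Gas5, read 980.019, 2463, 3316 and 1054 and 913, 2571, 2735 and 1088 with its bright probe sets, and 2 dim probe sets lay at -0.63 and -0.44. Of 5 nuclear-retained long non-coding RNAs 4 were lower, beside 2.86% of all genes tested. They include Meg3 at 418, 168, 272 and 503 and Kcnq1ot1 at 195, 72.8, 90.3 and 68.4. Another of these was Xist, the RNA of the inactive X chromosome, at 122, 45.5, 54.2 and 611, while the 3 measured genes of the Y chromosome did not pass. The labels call the mice sex-matched without giving the sex behind an array, and the part of sex in these values was not tested. Among the brightest probe sets, Slfn4, an interferon-induced gene of myeloid cells, read 5765, 840.3, 1923 and 5904 and Anxa2, a membrane-binding annexin, 10638, 5427, 5217 and 11638, while the metallothionein Mt1 read 3592, 8427, 10359 and 11726, above wild type on all other arrays but not past the rule on the Bmi1-labelled array under floor centring.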
